A study of Mus musculus with 11 samples.

Results

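The genes described are the natriuretic peptide genes and the genes of their activating protease and receptors: Nppa, Nppb, Corin, Npr1, Npr2 and Npr3. Their rows were taken by gene symbol. All 6 were found among the 15274 genes of the expression table, and all 6 were among the 14751 genes that passed the filter on low values. The study sequenced RNA from injured and uninjured mouse heart, labelled day 7, in 2 inbred strains, C3H/HeJ (C3H) and C57BL/6J (B6), at 8 weeks of age. The groups were injured regions of C3H hearts (n = 2), uninjured regions of C3H hearts (n = 3), injured regions of B6 hearts (n = 3) and uninjured regions of B6 hearts (n = 3). The 11 libraries came from 6 mice. Both regions were analysed in 5 of them and the uninjured region alone in C3H mouse 3, so the uninjured tissue of those 5 came from injured hearts. The labels name no transgene or treatment beside the injury, and the way of injury was not given in the sources used here. Mice are numbered within each strain, as in the labels.

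Nppa encodes atrial natriuretic peptide and Nppb encodes brain natriuretic peptide, hormones that cardiomyocytes release when the heart wall is stretched. In the adult heart Nppa is abundant in the atria and low in ventricular muscle, and both genes are widely used as markers of ventricular stress. Corin is a membrane protease of cardiomyocytes that cleaves the precursor of atrial natriuretic peptide into its active form. Npr1 encodes the guanylyl cyclase receptor for both cardiac peptides, and Npr2 encodes the related receptor that prefers C-type natriuretic peptide. Both make cyclic GMP, whereas Npr3 encodes the clearance receptor, which lacks a cyclase domain and removes the peptides from the circulation.

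Nppb and Nppa are neighbouring protein-coding genes on the plus strand of mouse chromosome 4, with Nppb first. Their promoters are shown because Gata4 and Nkx2-5, which encode transcription factors with binding motifs there, are described further on. The windows hold the 250 bases before each gene's start, from RefSeq with GRCm38.p6 coordinates: chr4:148000472-148000721 for Nppa and chr4:147985650-147985899 for Nppb, both on the plus strand. The build named in the submitters' processing notes is another, mm9, and the sequences are of the reference genome and not of C3H. Capitals mark every match, on either strand, to 4 short motifs: GATAA, the core that GATA factors bind; AAGTG, the core for the homeodomain factor NKX2-5; CATTCC, the core for TEAD factors; and TATAAA, the TATA box. The marked matches do not overlap.
Nppa: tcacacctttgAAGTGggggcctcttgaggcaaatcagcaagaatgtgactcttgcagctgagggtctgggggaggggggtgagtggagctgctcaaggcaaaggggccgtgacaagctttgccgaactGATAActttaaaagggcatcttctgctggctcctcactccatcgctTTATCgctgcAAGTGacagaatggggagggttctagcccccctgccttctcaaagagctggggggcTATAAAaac
Nppb: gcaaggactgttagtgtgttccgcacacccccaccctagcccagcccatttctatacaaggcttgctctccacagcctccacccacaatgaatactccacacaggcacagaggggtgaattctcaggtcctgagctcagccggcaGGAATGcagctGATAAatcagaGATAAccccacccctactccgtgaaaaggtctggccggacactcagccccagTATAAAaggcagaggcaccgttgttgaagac
The Nppa window held GATAA at 121 to 117 bases before the start and, on the minus strand, at 75 to 71 bases. It also held AAGTG at 239 to 235 and at 65 to 61 bases, and TATAAA at 9 to 4 bases. The Nppb window held GATAA at 94 to 90 and at 83 to 79 bases, CATTCC on the minus strand at 105 to 100 bases, and TATAAA at 31 to 26 bases. The windows of Corin, Npr1, Npr2 and Npr3 held none of these letters. Among all 32851 promoter windows of this length, 22.6% held GATAA, 40.7% held AAGTG, 12.6% held CATTCC and 12.4% held TATAAA, so these short matches are common.

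The recovered reads numbered between 9699985 and 22138459 per library. The authors' values are read counts divided by a size factor of each library, called normalised counts here. The strains also differed in sex-linked transcripts. Xist lay between 1840 and 8478 normalised counts in the 5 C3H libraries and between 3.14 and 12.2 in the 6 B6 libraries. The sum of 4 Y-linked genes lay between 0.888 and 12.1 in C3H and between 2824 and 4633 in B6, so strain and sex cannot be told apart in any strain comparison. The summed level of 10 cardiomyocyte markers, whose most abundant gene was the myosin heavy chain gene Myh6, was 524281 to 554949 in C3H injured regions, against 1558873 to 1854124 in C3H uninjured regions. It was 819073 to 1053299.5 in B6 injured regions, against 1357822 to 1710260.3 in B6 uninjured regions. In bulk tissue, fewer cells of a type and less RNA per cell cannot be told apart.

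Divided by exon length, the peptide genes stood far above their receptors in every group. Nppa averaged 60487 normalised counts per kb in C3H injured regions, 37231 in C3H uninjured regions, 21867 in B6 injured regions and 5512 in B6 uninjured regions. On the same scale, Nppb averaged 7432 in C3H injured regions, 11778 in C3H uninjured regions, 13358 in B6 injured regions and 8271 in B6 uninjured regions. B6 uninjured regions were thus the group in which mean Nppb stood above mean Nppa. Corin followed with means of 391 in C3H injured, 693 in C3H uninjured, 469 in B6 injured and 750 in B6 uninjured regions. Npr2 averaged 280 in C3H injured, 331 in C3H uninjured, 279 in B6 injured and 289 in B6 uninjured regions. Npr1 averaged 107 in C3H injured, 142 in C3H uninjured, 124 in B6 injured and 115 in B6 uninjured regions. Npr3 was the lowest of the set, at 14.9 in C3H injured, 60.4 in C3H uninjured, 8.96 in B6 injured and 28.5 in B6 uninjured regions.

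**Figure D1:**
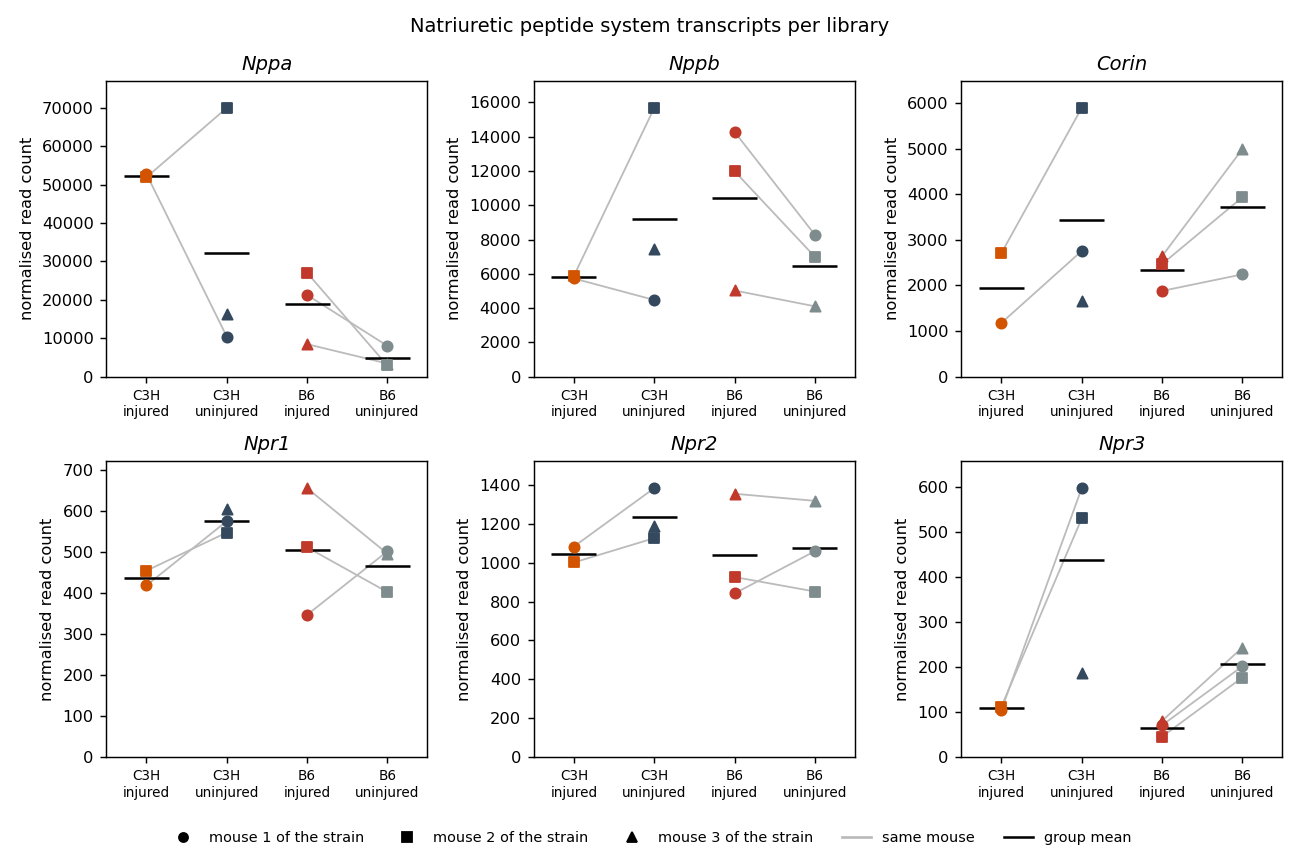
Normalised counts (vertical axes) of the 6 genes in each of the 11 libraries, by group. Symbols mark the mouse, grey lines join regions of a mouse and bars are group means. Npr3 is lower in injured than in uninjured regions of both strains with no overlap, while Nppa in C3H spans 10416 to 69974 among uninjured libraries alone.

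The main test compared injured with uninjured regions within each strain, by limma on log2(normalised count + 1) with Benjamini-Hochberg adjustment over all 14751 genes and a threshold of 0.05. Fold changes are on this log2 scale, which understates the change of genes with low counts. In C3H, 30.7% of all genes passed (2253 higher and 2274 lower in injured regions). Of the 6 genes described here, 1 passed, which is below that share. In B6, 0.0136% of all genes passed, a count of 2, and none of the 6 did. At an unadjusted p under 0.05, the B6 comparison held 1979 genes, among them Nppa and Npr3. edgeR on the recovered reads called 4539 genes in C3H and 2 in B6, with 1 and 0 of the 6.

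Nppa had 52736 and 51908 normalised counts in injured regions of C3H mice 1 and 2, against 10416, 69974 and 16226 in uninjured regions of C3H mice 1, 2 and 3. The injured libraries lay close together, and the uninjured library of mouse 2 lay above both of them. The means were 52322 ± 585 in C3H injured and 32205 ± 32837 in C3H uninjured regions (SD, n = 2 and 3). Injured regions differed from uninjured by 1.20 on the log2 scale (SE 0.72, limma adjusted p = 0.226), with a 95% interval of -0.37 to 2.77. Without the uninjured library of C3H mouse 2 it was 2.01 and passed the threshold (adjusted p = 0.0234), and without that of mouse 1 it was 0.63.

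In B6 mice 1, 2 and 3, Nppa had 21258, 27047 and 8439 normalised counts in injured regions, against 8007, 2893 and 3403 in uninjured regions. Every injured value lay above every uninjured value, by a narrow margin between injured mouse 3 and uninjured mouse 1. The means were 18915 ± 9522 in B6 injured and 4768 ± 2817 in B6 uninjured regions (SD, n = 3 each). The log2 difference of 1.98 (SE 0.65, 95% interval 0.57 to 3.39), a 3.95-fold higher level, had a limma adjusted p of 0.364. With the mouse as a fixed block, which compares regions within animals, the SE was 0.48 and the limma adjusted p was 0.100. With the mouse as a random effect the limma adjusted p was 0.0958. Within mice, the injured region had 2.66, 9.35 and 2.48 times the uninjured level in B6 mice 1, 2 and 3. That ratio was 5.06 in C3H mouse 1 and 0.742 in C3H mouse 2, so 4 of 5 mice were higher in the injured region. The injury effect in C3H minus that in B6 was -0.78 (95% interval -2.89 to 1.33, limma adjusted p = 0.775), an interval that spans effects of either sign.

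In C3H, Nppb had 5725 and 5883 normalised counts in injured regions of C3H mice 1 and 2, against 4471, 15683 and 7442 in uninjured regions of C3H mice 1, 2 and 3. The injured values lay within the uninjured range, whose highest value came from mouse 2, the library that was also highest for Nppa and Corin. The means were 5804 ± 111 in C3H injured and 9198 ± 5809 in C3H uninjured regions (SD, n = 2 and 3). The regions differed by -0.47 on the log2 scale (SE 0.53, limma adjusted p = 0.522), and by 0.01 without the uninjured library of C3H mouse 2.

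In B6 mice 1, 2 and 3, Nppb had 14285, 11988 and 5026 normalised counts in injured regions, against 8281, 6995 and 4102 in uninjured regions. The groups overlapped, since injured mouse 3 lay below uninjured mice 1 and 2. The log2 difference was 0.62 (SE 0.47, 95% interval -0.41 to 1.64, limma adjusted p = 0.553). Each B6 mouse was nonetheless higher in its injured region, with ratios of 1.72, 1.71 and 1.23, whereas C3H mice 1 and 2 had ratios of 1.28 and 0.375. The effect in C3H minus that in B6 was -1.09 (95% interval -2.63 to 0.45, limma adjusted p = 0.526). With the mouse as a fixed block the limma adjusted p was 0.221 for Nppb in B6 and 0.218 for the difference between strains.

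The ratio of the 2 peptide transcripts was computed after the values had been seen. Normalised counts of Nppa per count of Nppb were 9.21 and 8.82 in C3H injured regions, against 2.33, 4.46 and 2.18 in C3H uninjured regions. They were 1.49, 2.26 and 1.68 in B6 injured regions, against 0.967, 0.414 and 0.830 in B6 uninjured regions. No library of an injured group overlapped its uninjured group, and no C3H library overlapped the B6 libraries of the same region. The mean ratio was 9.02 ± 0.274 in C3H injured and 2.99 ± 1.28 in C3H uninjured regions, and 1.81 ± 0.40 in B6 injured and 0.737 ± 0.288 in B6 uninjured regions (SD). A two-sided exact permutation test gave p = 0.100 for both injury and both strain comparisons, the smallest value that these group sizes allow. Here and for the ratios below, the test regrouped libraries freely and did not use the pairing of regions within mice.

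**Figure D2:**
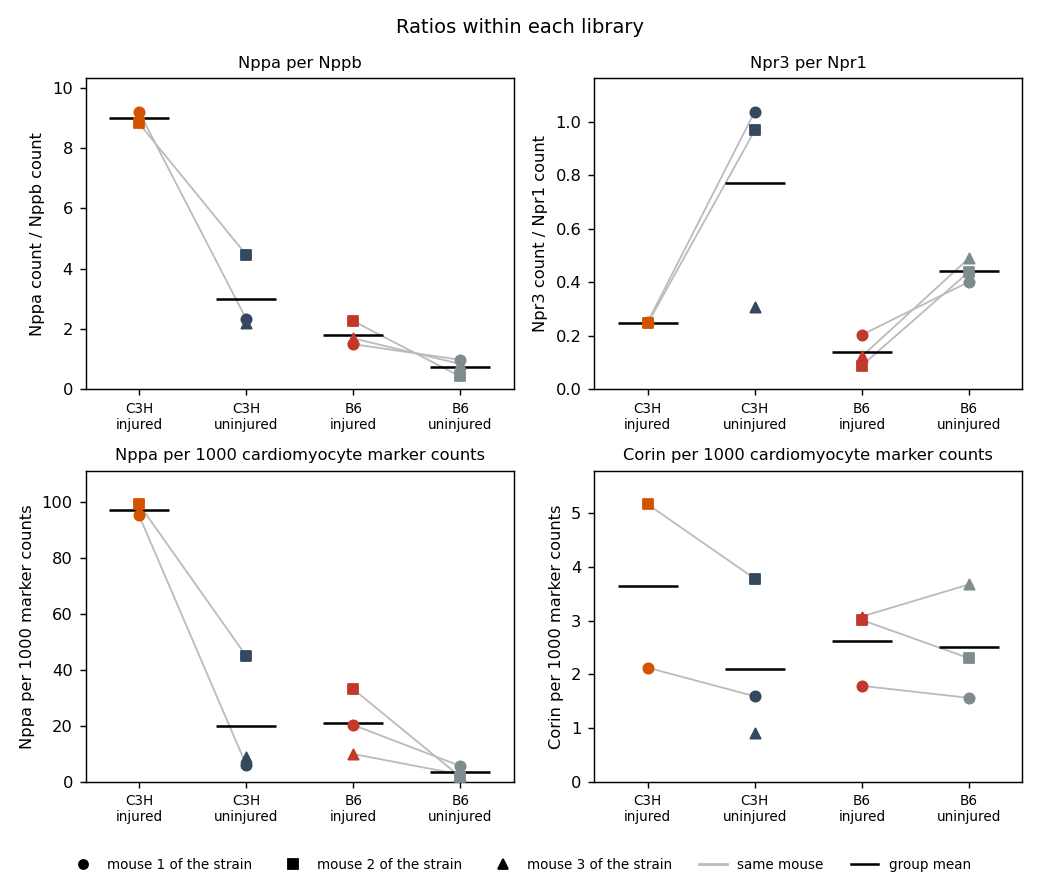
Ratios of normalised counts in each library: Nppa per Nppb, Npr3 per Npr1, and Nppa and Corin per 1000 counts of the cardiomyocyte markers. Symbols mark the mouse, grey lines join regions of a mouse and bars are group means. The 2 C3H injured libraries lie at 9.21 and 8.82 Nppa per Nppb, above all other libraries.

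Cardiomyocyte marker transcripts were lower in injured regions, and the peptide genes were therefore also set against them, again after their values had been seen. Nppa per 1000 counts of the 10 cardiomyocyte markers was 95.0 and 99.0 in C3H injured regions, against 6.01, 44.9 and 8.75 in C3H uninjured regions. It was 20.2, 33.0 and 9.83 in B6 injured regions, against 5.57, 1.69 and 2.51 in B6 uninjured regions. On this scale both strains had every injured library above every uninjured library (two-sided exact permutation p = 0.200 in C3H and 0.100 in B6, where 0.1 is the smallest value possible). Nppb per 1000 marker counts was 10.3 and 11.2 in C3H injured regions, against 2.58, 10.1 and 4.01 in C3H uninjured regions. In B6 it was 13.6, 14.6 and 5.85 in injured regions, against 5.76, 4.09 and 3.02 in uninjured regions. The regions were again apart in both strains, by narrow margins (exact permutation p = 0.200 in C3H and 0.100 in B6). The marker sums alone did not overlap between regions in either strain. A gene of equal count in both regions would thus also be higher in injured regions on this scale. In C3H the mean log2 difference of Nppb was -0.47 in counts and 1.19 per marker count. The share of all genes apart on this scale was not computed, and the part of the marker difference in the peptide results was not tested further.

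Atrial tissue is rich in Nppa, so atrial markers were read beside it. Of 6 atrial markers, 4 were found and 2, Sln and Bmp10, were not analysed here. The atrial myosin light chain gene Myl7 lay between 0 and 24.9 normalised counts over the 11 libraries, Mybphl between 0 and 26.2 and Myl4 between 30.6 and 131. The uninjured library of C3H mouse 2, with the highest Nppa, had 5.23 for Myl7, 59.7 for Myl4 and 26.2 for Mybphl. In the same order, the values were 17.8, 91.1 and 3.96 in the uninjured library of C3H mouse 1. They were 18.6, 131 and 3.55 in that of C3H mouse 3. The most abundant, the potassium channel gene Kcnj3, lay between 329 and 1632. The summed atrial markers were 370 to 486 in C3H injured regions, against 1094 to 1322 in C3H uninjured regions, and 841 to 895 in B6 injured regions, against 1123 to 1754 in B6 uninjured regions. Most of each sum was Kcnj3 alone, with 329 to 425 in C3H injured and 1003 to 1209 in C3H uninjured regions. It had 772 to 861 in B6 injured and 1071 to 1632 in B6 uninjured regions. In B6, Mybphl went the other way and was higher in injured regions, at counts near 0. The part of atrial tissue in the Nppa values was not tested.

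Corin had 1178 and 2710 normalised counts in injured regions of C3H mice 1 and 2, against 2757, 5896 and 1669 in uninjured regions of C3H mice 1, 2 and 3. The groups overlapped, and mouse 2 was above mouse 1 in both regions. The means were 1944 ± 1083 in C3H injured and 3441 ± 2195 in C3H uninjured regions (SD, n = 2 and 3). On the log2 scale the difference was -0.75 (SE 0.50, limma adjusted p = 0.275). It was -0.15 without the injured library of C3H mouse 1 and -1.35 without that of C3H mouse 2.

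Within mice, Corin was lower in the injured region in 5 of 5 animals. The uninjured region had 2.34 and 2.18 times the injured level in C3H mice 1 and 2, and 1.19, 1.59 and 1.89 times in B6 mice 1, 2 and 3. Of all genes tested, 19.9% were lower in the injured region of all 5 mice, so this pattern is not rare. With the mouse as a fixed block, which compares regions within animals, Corin fell in C3H by 1.17 on the log2 scale (SE 0.22, limma adjusted p = 0.00249). That estimate rests on C3H mice 1 and 2 only, with a spread estimated over both strains. With the mouse as a random effect the limma adjusted p was 0.0646. In C3H, 17.2% of all genes passed in the lower direction in the fit with the fixed block.

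In B6, Corin had 1879, 2467 and 2641 normalised counts in injured regions of mice 1, 2 and 3, against 2243, 3934 and 4989 in uninjured regions. The groups overlapped through uninjured mouse 1. On the log2 scale the difference was -0.62 (SE 0.45, limma adjusted p = 0.536), and with the mouse as a fixed block the adjusted p was 0.115. Corin per 1000 cardiomyocyte marker counts was 2.12 and 5.17 in C3H injured regions, against 1.59, 3.78 and 0.900 in C3H uninjured regions. It was 1.78, 3.01 and 3.08 in B6 injured regions, against 1.56, 2.30 and 3.67 in B6 uninjured regions, and relative to these markers Corin was higher in the injured region in 4 of 5 mice, the exception being B6 mouse 3. The difference in the mean log2 of this ratio was 0.92 in C3H (exact permutation p = 0.400) and 0.11 in B6 (exact permutation p = 0.900), against a lower mean Corin count in injured regions of both strains.

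The guanylyl cyclase receptor genes Npr1 and Npr2 did not pass the threshold in either strain. Npr1 had 419 and 454 normalised counts in C3H injured regions, against 575, 548 and 606 in C3H uninjured regions. It had 347, 511 and 656 in B6 injured regions, against 502, 402 and 496 in B6 uninjured regions. The C3H groups did not overlap and the B6 groups did. The log2 difference was -0.40 in C3H (SE 0.26, limma adjusted p = 0.261) and 0.07 in B6 (SE 0.23, limma adjusted p = 0.908).

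Npr2 had 1084 and 1002 normalised counts in C3H injured regions, against 1385, 1128 and 1192 in C3H uninjured regions. It had 842, 927 and 1356 in B6 injured regions, against 1060, 852 and 1320 in B6 uninjured regions. Here too the C3H groups were apart, by a small margin, and the B6 groups overlapped. The log2 difference was -0.24 in C3H (SE 0.25, limma adjusted p = 0.50) and -0.06 in B6 (SE 0.23, limma adjusted p = 0.925). In C3H, Npr1, Npr2 and Npr3 were the 3 genes of the set with no overlap between regions, all lower in injured regions, and 29.7% of all genes showed that pattern in that direction. In B6, where Npr1 and Npr2 overlapped, the genes apart were Nppa, higher as 9.83% of all genes were, and Npr3, lower as 7.69% were.

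The clearance receptor Npr3 had lower levels in injured regions of both strains, past the threshold in C3H. It had 105 and 112 normalised counts in injured regions of C3H mice 1 and 2, against 597, 530 and 186 in uninjured regions of C3H mice 1, 2 and 3. The injured libraries lay below all uninjured ones, and the uninjured library of mouse 3, whose injured region was not analysed here, was far lower than the other two. The means were 108 ± 4.96 in C3H injured and 437 ± 221 in C3H uninjured regions (SD, n = 2 and 3). In C3H, Npr3 fell by 1.84 on the log2 scale (SE 0.45, 95% interval -2.81 to -0.86, limma adjusted p = 0.00954), a level 3.57-fold lower. In C3H, 15.4% of all genes passed in the lower direction. The call was lost without the injured library of C3H mouse 1 (-1.79, adjusted p = 0.0551) or of C3H mouse 2 (-1.88, adjusted p = 0.0599).

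In B6, Npr3 had 70.1, 44.8 and 79.9 normalised counts in injured regions of mice 1, 2 and 3, against 201, 176 and 243 in uninjured regions. The groups stood well apart, with the highest injured value under the lowest uninjured value. The means were 64.9 ± 18.1 in B6 injured and 207 ± 33.6 in B6 uninjured regions (SD, n = 3 each). The log2 difference was -1.68 (SE 0.40, 95% interval -2.55 to -0.81), a level 3.21-fold lower. Its limma adjusted p was 0.364, where only 2 of all genes passed. Npr3 ranked 40 by p among all genes tested.

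Within mice, the uninjured region had 5.71 and 4.74 times the injured level of Npr3 in C3H mice 1 and 2, and 2.87, 3.94 and 3.04 times in B6 mice 1, 2 and 3. With the mouse as a fixed block, Npr3 fell in B6 by 1.68 on the log2 scale (SE 0.23, limma adjusted p = 0.0233), in a fit in which 0.136% of all genes passed, 0.0203% in the lower direction. With the mouse as a random effect the adjusted p in B6 was 0.0678. In C3H the fixed block gave Npr3 a fall of 2.37 (SE 0.28, limma adjusted p = 0.000207), in a fit in which 17.2% of all genes passed in the lower direction. That estimate rests on C3H mice 1 and 2 only, with a spread estimated over both strains. Npr3 was thus lower in the injured region of all 5 mice, as 19.9% of all genes tested were. Both C3H mice had a larger within-mouse ratio of Npr3 than the 3 B6 mice. The share of all genes with that pattern was not computed. The injury effect on Npr3 in C3H minus that in B6 was -0.15 (95% interval -1.46 to 1.15, limma adjusted p = 0.944). With the mouse as a fixed block it was -0.69 (SE 0.36, limma adjusted p = 0.349). Neither fit placed the difference between strains past the threshold.

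**Figure D3:**
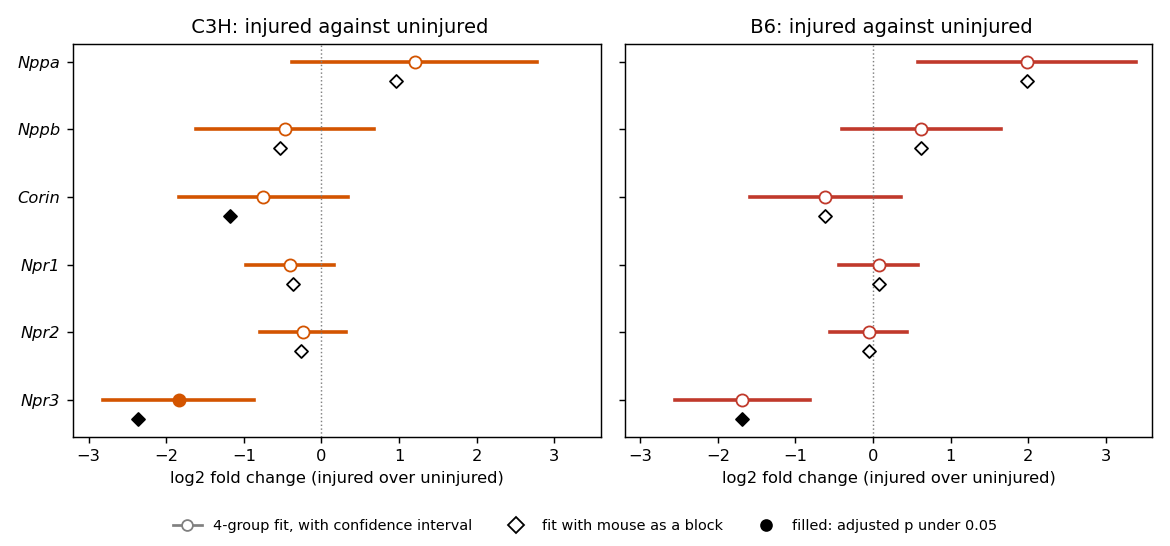
Log2 difference, injured minus uninjured, of the 6 genes in C3H and in B6. Circles are limma estimates with 95% intervals, diamonds are estimates with the mouse as a fixed block, and filled symbols passed the threshold. Npr3 lies at -1.84 in C3H and -1.68 in B6, and in C3H Corin passes in the fit with the block.

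The ratio of the clearance receptor to the signalling receptor was computed after the values had been seen. Npr3 per Npr1 was 0.250 and 0.246 in C3H injured regions, against 1.04, 0.967 and 0.306 in C3H uninjured regions. It was 0.202, 0.0876 and 0.122 in B6 injured regions, against 0.401, 0.438 and 0.489 in B6 uninjured regions. Injured libraries were lower in both strains, with a narrow gap in C3H. A two-sided exact permutation test gave p = 0.200 in C3H and p = 0.100 in B6, where 0.1 is the smallest value either design allows.

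Several marker lists moved in the same samples as Npr3. Markers of trabecular and conduction muscle summed to 777 to 834 normalised counts in C3H injured regions, against 1985 to 2225 in C3H uninjured regions. They summed to 681 to 810 in B6 injured regions, against 1183 to 1909.99 in B6 uninjured regions. Their most abundant gene, Irx3, averaged 338 in C3H injured and 1298 in C3H uninjured regions. Of the 7 trabecular and conduction markers, 6 were lower in injured regions of each strain. Etv1 was higher in C3H injured regions (239 ± 34.1 against 129 ± 33.3), and Gja5 was higher in B6 injured regions (162 ± 12.2 against 132 ± 45.8). Endocardial markers, for the lining cells of the heart chambers, summed to 4497 to 5570 in C3H injured regions, against 1734 to 4161 in C3H uninjured regions. They summed to 2062 to 3676 in B6 injured regions, against 1410.2 to 2739.7 in B6 uninjured regions. The 7 endocardial markers did not move together. In C3H, Adgrg6, Plvap and Nfatc1 rose by 2.23, 1.61 and 1.39 on the log2 scale and Cytl1 fell by 2.04 (limma adjusted p = 0.00330, 0.00520, 0.00600 and 0.00135). The calls of Adgrg6 and Nfatc1 were lost without the injured library of C3H mouse 2 (adjusted p = 0.0657 and 0.0852). In B6 none passed, and the lowest log2 differences were -1.03 for Smoc1, which had 0.70 in C3H, and -0.92 for Cytl1 (limma adjusted p = 0.364 for both in B6). Fibroblast markers summed to 244105 to 328297 in C3H injured regions, against 63890 to 150014 in C3H uninjured regions. In B6 they summed to 197574 to 201699 in injured regions, against 102258 to 181397 in uninjured regions. Of the 8 fibroblast markers, 6 were higher in C3H injured regions and 7 in B6 injured regions. Gsn was lower in C3H (15025 ± 328 against 33081 ± 7060) and in B6 (20890 ± 3533 against 28394 ± 2676). Tcf21 was lower in C3H (294 ± 78.6 against 363 ± 127). Macrophage markers summed to 70676 to 122536 in C3H injured regions, against 10588 to 17749 in C3H uninjured regions, and to 29823 to 39708 in B6 injured regions, against 18759 to 25807 in B6 uninjured regions. Endothelial markers summed to 13252 to 18261 in C3H injured regions, against 16077 to 24550.4 in C3H uninjured regions, and to 18916 to 23092 in B6 injured regions, against 16854 to 23451 in B6 uninjured regions. These sums overlapped, but in C3H all 8 endothelial markers were lower in injured regions. Of them 3 passed, where 15.4% of all genes passed in that direction. In B6, 6 of the 8 were higher and none passed. The sums of mural and epicardial markers also overlapped between regions in both strains. The 5 adipocyte markers listed were not analysed here. The part of these cell markers in the Npr3 result was not tested.

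Between strains, the peptide gene Nppa was the member with the widest difference. In uninjured regions its 3 C3H values of 10416, 69974 and 16226 all lay above its 3 B6 values of 8007, 2893 and 3403. The log2 difference of C3H minus B6 was 2.41 (SE 0.65, 95% interval 1.00 to 3.82), a 5.31-fold higher level, with a limma adjusted p of 0.0713. It was 2.97 and passed without the uninjured library of C3H mouse 1 (adjusted p = 0.0340), and it was 1.60 without that of C3H mouse 2. DESeq2 on the recovered reads called it (2.76, adjusted p = 0.0153). In this comparison 3.10% of all genes passed, and none of the 6. Npr1 also did not overlap, with a log2 difference of 0.31 (limma adjusted p = 0.566), and 7.63% of all genes were higher in C3H without overlap.

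Npr3 in uninjured regions differed by 0.92 on the log2 scale, C3H minus B6 (SE 0.40, limma adjusted p = 0.277), with overlap through C3H mouse 3. Without that library the difference was 1.45 and passed (adjusted p = 0.0366). Nppb, Npr2 and Corin had log2 differences of 0.38, 0.21 and -0.23 in uninjured regions, with limma adjusted p from 0.701 to 0.848. In injured regions, Nppa and Npr3 did not overlap between strains, with log2 differences of 1.63 (SE 0.72, limma adjusted p = 0.194) and 0.77 (SE 0.45, limma adjusted p = 0.325). There 24.9% of all genes were higher in C3H without overlap, and 7.06% passed the threshold in either direction. Nppb, Npr1, Npr2 and Corin had log2 differences of -0.71, -0.16, 0.03 and -0.37 in injured regions, with limma adjusted p from 0.441 to 0.954. Neither strain comparison placed any of the 6 past the threshold in the limma fit. At an unadjusted p under 0.05, the comparison in uninjured regions held 2408 of all genes tested, among them 2 of the 6. The comparison in injured regions held 3515 at that cut, among them 1 of the 6. edgeR called 407 genes between strains in uninjured and 1101 in injured regions, and none of the 6.

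The wider pathway was read from 5 lists with 50 genes, of which 48 were found. Nppc, which encodes C-type natriuretic peptide, and Ostn were not analysed here. In B6 no gene of any list passed the threshold in the limma fit. The median of all genes was 0.01 on the log2 scale in both strains. Each list is described by its count and median, and shares its libraries with the results above.

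Of 5 genes tested for peptide processing and clearance, none passed in C3H (median -0.13) or in B6 (median -0.12). Ide, which encodes a protease that degrades insulin and natriuretic peptides, averaged 1474 ± 35.6 normalised counts in C3H injured and 1826 ± 121 in C3H uninjured regions, with a log2 difference of -0.31 (limma adjusted p = 0.303). Mme, which encodes neprilysin, the main peptidase that degrades natriuretic peptides, averaged 116 ± 11.4 in B6 injured and 186 ± 56.1 in B6 uninjured regions, with a log2 difference of -0.63 (limma adjusted p = 0.365). Between strains, Ide was lower in C3H than in B6, with log2 differences of -0.97 in uninjured regions (limma adjusted p = 0.0190) and -1.001 in injured regions (limma adjusted p = 0.0196). Mme was higher in C3H than in B6 by 1.48 on the log2 scale in injured regions (limma adjusted p = 0.0135). In uninjured regions the call of Ide was lost without B6 mouse 2 (adjusted p = 0.0685) or C3H mouse 1 or 3 (0.0593 and 0.0599). In injured regions it was lost without C3H mouse 1 or 2 (0.0916 and 0.207) or B6 mouse 1 or 2 (0.0505 and 0.0682), and that of Mme without C3H mouse 1 or 2 (0.0744 and 0.146) or B6 mouse 1 (0.0536).

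Cyclic nucleotide phosphodiesterases, which break down cyclic GMP or cyclic AMP, were higher in C3H injured regions for 4 of 9 tested, with none lower (median 0.90; 0.50 in B6). Of all genes, 15.3% were called higher in C3H injured regions. Pde3b rose to 362 ± 26.8 normalised counts in C3H injured regions, against 93.9 ± 21.7 in C3H uninjured regions, a log2 change of 1.96 (SE 0.29, limma adjusted p = 0.000609). Pde1b rose by 2.03 (adjusted p = 0.00489), Pde1a by 1.16 (adjusted p = 0.0102) and Pde5a, a cyclic GMP-specific enzyme, by 0.90 (adjusted p = 0.0280). Of the 9 genes, 6 had log2 differences above 0 in C3H and 3 below. The lowest was -0.71 for Pde9a (limma adjusted p = 0.199). The calls of Pde1b, Pde1a and Pde5a were lost without the injured library of C3H mouse 2 (adjusted p = 0.0737, 0.0923 and 0.107), and that of Pde5a also without the injured library of C3H mouse 1 (0.147) or the uninjured library of C3H mouse 2 (0.0797). In B6, Pde1a averaged 389 ± 21.0 in injured and 214 ± 76.7 in uninjured regions, with a log2 difference of 0.92 (limma adjusted p = 0.364).

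Of 11 genes for cyclic GMP synthesis and its effectors, 2 were higher in C3H injured regions and none lower (median 0.32; 0.31 in B6), a share near the 15.3% of all genes called higher. Gucy1a3, a subunit of soluble guanylyl cyclase, which answers nitric oxide and not the peptides, averaged 1240 ± 152 normalised counts in C3H injured and 736 ± 87.5 in C3H uninjured regions, and it rose by 0.75 (SE 0.24, limma adjusted p = 0.0301). Prkg2, a cyclic GMP-dependent protein kinase, averaged 36.7 ± 6.86 in C3H injured and 9.31 ± 5.35 in C3H uninjured regions, and it rose by 2.00 (SE 0.68, limma adjusted p = 0.0432). Leaving out single libraries gave Gucy1a3 adjusted p of 0.186 and 0.0888 without the injured libraries of C3H mice 1 and 2, and 0.0693 and 0.0875 without the uninjured libraries of C3H mice 2 and 3. For Prkg2 these 4 values were 0.199, 0.144, 0.118 and 0.0841, and they were 0.0552, 0.0568 and 0.0576 without the injured libraries of B6 mice 1, 2 and 3. With the mouse as a fixed block Gucy1a3 no longer passed (0.70, limma adjusted p = 0.0548). In B6, Gucy1a3 had a log2 difference of 0.56 (limma adjusted p = 0.364).

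Transcription factors known to act on the peptide genes were lower in C3H injured regions for 6 of 15 tested, with none higher (median -0.52; -0.07 in B6). Of all genes, 15.4% were called lower there. The factor Nkx2-5, whose core motif is marked in the Nppa window, fell to 620 ± 129 normalised counts in C3H injured regions, against 2418 ± 441 in C3H uninjured regions, a log2 change of -1.96 (SE 0.23, limma adjusted p = 0.000156). Hand2 fell to 826 ± 193 in C3H injured regions, against 2659 ± 157 in C3H uninjured regions, a log2 change of -1.70 (SE 0.22, limma adjusted p = 0.000259). Gata4, whose core motif is marked in both windows, fell by 0.98 (adjusted p = 0.0148) and Srf by 0.96 (adjusted p = 0.0162). The calls of Gata4 and Srf were lost without the injured library of C3H mouse 2 (adjusted p = 0.161 and 0.157) or the uninjured library of C3H mouse 3 (0.0550 and 0.0545). Gata6 and Tbx5 were the other 2 past the threshold. Rest was the 1 of the 15 with a log2 difference above 0 in C3H, at 395 ± 27.4 in injured and 188 ± 146 in uninjured regions. In B6, 7 of the 15 were above 0, and Rest was the highest at 1.76 (limma adjusted p = 0.365). The effect on Nkx2-5 in C3H minus that in B6 was -1.57 (SE 0.31, limma adjusted p = 0.0264), in an interaction in which 1.57% of all genes passed and none of the 6 peptide and receptor genes did. That call was lost without the injured library of B6 mouse 1, 2 or 3 (adjusted p = 0.0772, 0.0612 and 0.0567), the uninjured library of B6 mouse 1 (0.0760), the injured library of C3H mouse 2 (0.240) or the uninjured library of C3H mouse 3 (0.0698). In B6, Hand2 had a log2 difference of -0.47 (limma adjusted p = 0.365). Cardiomyocyte markers were lower in the same regions, 8 of 10 in C3H past the threshold and 0 of 10 in B6, and their part in these results was not tested.

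Of 8 other stress genes of cardiomyocytes, 1 fell in C3H and none rose (median -0.55), and in B6 the median was 0.34. This count is near the 15.4% of all genes called lower in C3H. Csrp3, which encodes a muscle LIM protein of the sarcomere, fell to 9257 ± 387 normalised counts in C3H injured regions, against 39427 ± 12325 in C3H uninjured regions, a log2 change of -2.04 (SE 0.37, limma adjusted p = 0.00209). Gdf15, a secreted stress cytokine, averaged 270 ± 58.0 in B6 injured and 55.5 ± 30.5 in B6 uninjured regions, with a log2 difference of 2.39 (SE 0.54, limma adjusted p = 0.364). Myh7, the fetal myosin heavy chain gene that is often read beside Nppa, was higher in C3H than in B6 by 2.42 in uninjured regions (limma adjusted p = 0.00710) and by 1.83 in injured regions (limma adjusted p = 0.0350). The call in injured regions was lost without C3H mouse 2 (adjusted p = 0.431) or B6 mouse 1 or 2 (0.130 and 0.0926).

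**Figure D4:**
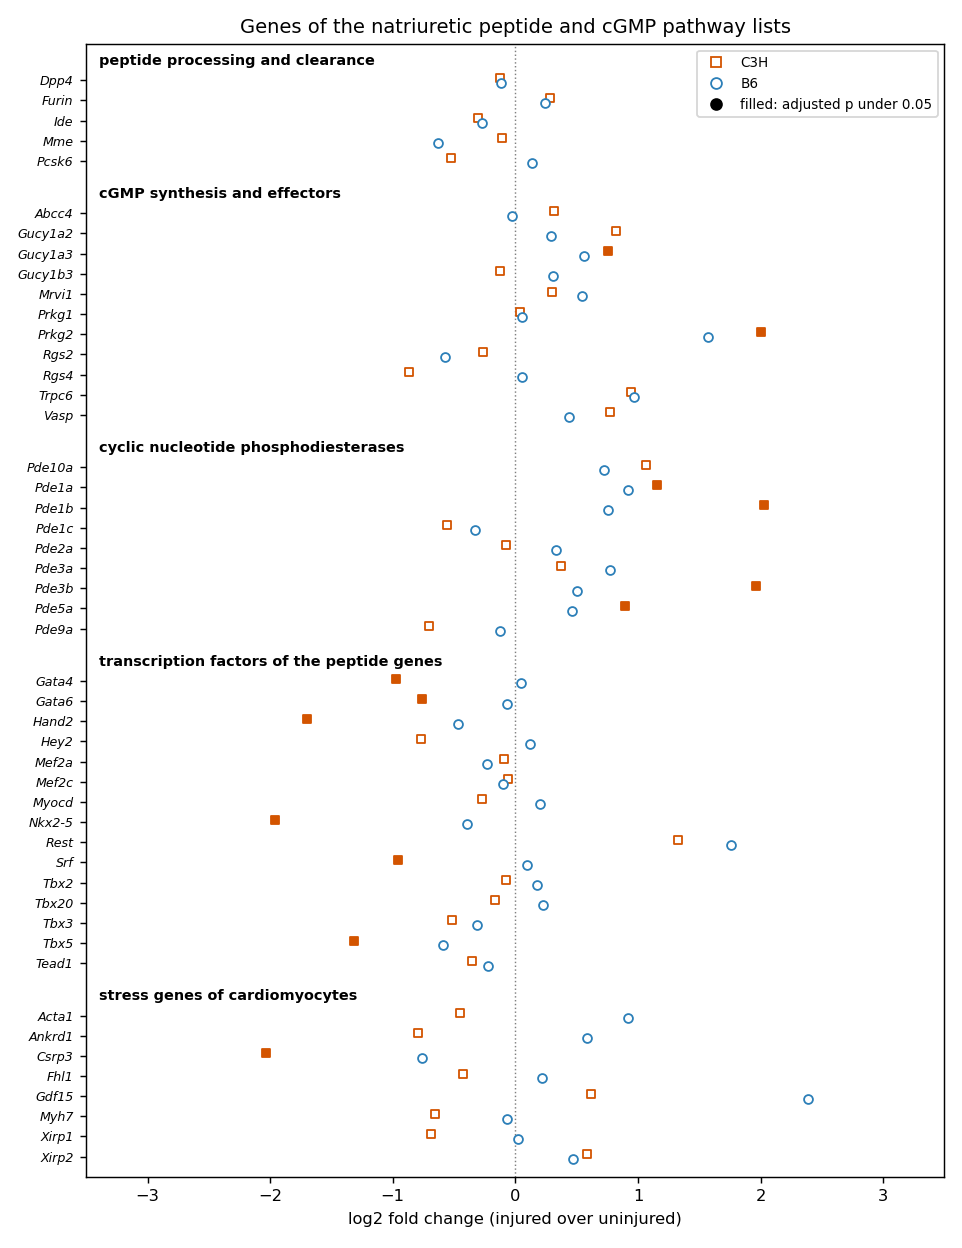
Log2 difference, injured minus uninjured, of the pathway list genes in C3H and B6 by list. Filled symbols passed the threshold in limma and open symbols did not. All filled symbols belong to C3H, with 4 phosphodiesterase genes above 0 and 6 transcription factor genes below 0.

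The genes whose profiles over the 11 libraries were closest to each member were taken by the root mean square (RMS) difference of log2(normalised count + 1), centred on each gene's mean, among 11555 genes. For Npr3, whose own RMS deviation was 1.10, the closest were Mpped2 at 0.501, Cytl1 at 0.523 and Irx5 at 0.563, against a median of 1.15 over all candidates. Mpped2 averaged 184 ± 22.9 normalised counts in C3H injured and 657 ± 76.2 in C3H uninjured regions, and 170 ± 29.8 in B6 injured and 387 ± 53.1 in B6 uninjured regions. Cytl1 and Irx5 are also on the endocardial and the trabecular and conduction lists.

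For Nppa, whose own RMS deviation was 1.49, the closest were Serpinb1c at 0.660, Cnksr1 at 0.822 and Mctp1 at 0.849, against a median of 1.55 over all candidates. Like Nppa, each was highest in the uninjured library of C3H mouse 2. Cnksr1 had 1271 normalised counts there, against 202 and 286 in the uninjured libraries of C3H mice 1 and 3. The values in the same order were 747, 111 and 71.9 for Mctp1 and 574, 128 and 204 for Serpinb1c. The weight of this library in the matches was not tested. For Nppb the closest genes were Grrp1 at 0.334, Tgtp2 at 0.340 and Ms4a4d at 0.346, against its own deviation of 0.633. They too were highest in the uninjured library of C3H mouse 2, where Tgtp2 had 847 normalised counts, against 209 and 285 in C3H mice 1 and 3. For Corin the closest were Myo5c at 0.262, Fam65b at 0.283 and Dpyd at 0.299, against its own 0.648. Npr1 and Npr2 had own deviations of 0.260 and 0.243, and their closest genes were Ccnk, Klhdc8b and Gtpbp2 for Npr1 and Ppp1r13b, Bicd2 and Ptpn21 for Npr2. Among the members themselves, Npr1 and Npr2 had the smallest difference, 0.164. The neighbouring genes Nppa and Nppb were 1.31 apart, and Nppa and Npr3 were 1.97 apart.

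**Figure D5:**
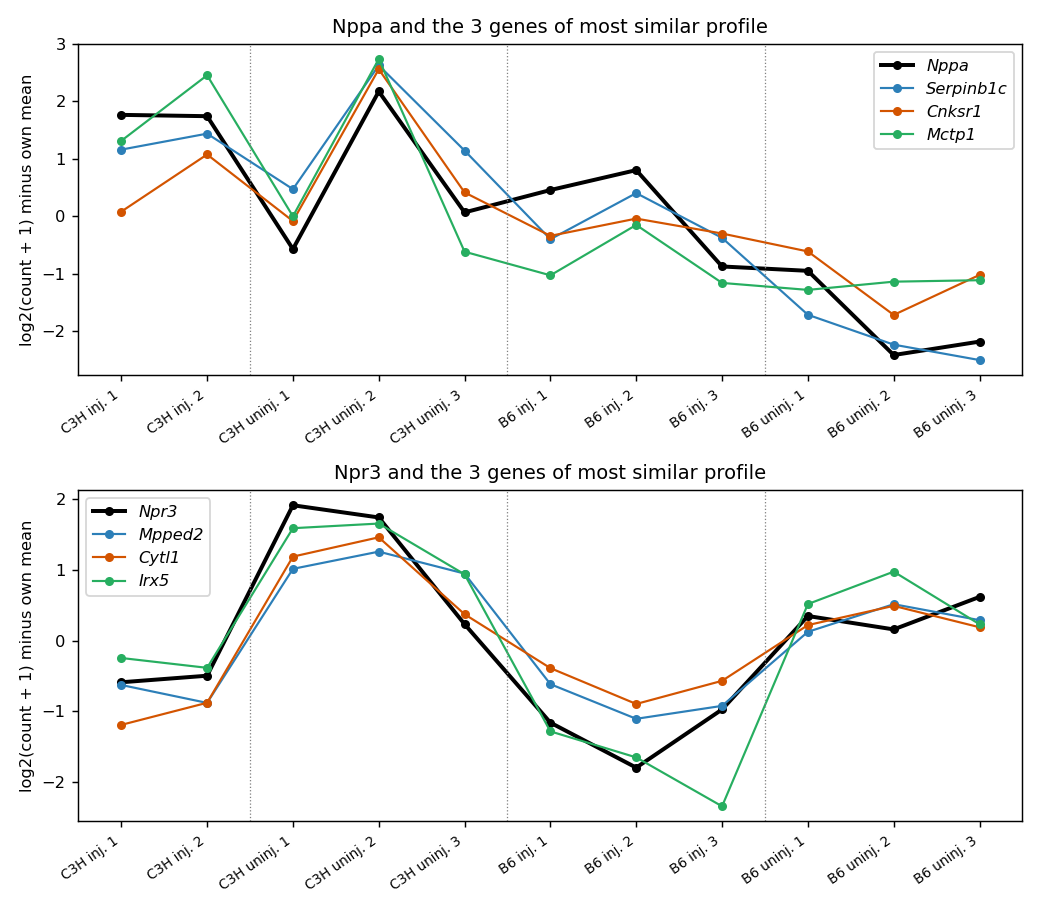
Log2(normalised count + 1) of Nppa and Npr3 with their 3 closest genes, centred on each gene's mean, in the 11 libraries in group order. Each line is a gene. Npr3, Mpped2, Cytl1 and Irx5 are lower in the injured than in the uninjured libraries of both strains.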

How the data were processed

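Heart RNA of 11 libraries was extracted with column kits and sequenced on a standard Illumina protocol, per the labels' protocols. TopHat2 2.0.11, HTSeq 0.6.1, DESeq and the build mm9 are named in the submitters' processing notes, without roles. The deposited values are a normalised signal: the authors' read counts divided by a size factor of each library. Multiplying back gave whole reads (tolerance 1e-06) for 100% of values in all 11 libraries. The members and lists were chosen with earlier results of these data known.

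Values were log2-transformed with a pseudocount of 1, and a gene was tested if 2 or more libraries reached 10 (14751 tested, 523 not). limma 3.58.1 (R 4.3.3) estimated 4 group means from all libraries, with the empirical Bayes variance allowed to follow expression level (two-sided, 7 residual degrees of freedom). p-values were adjusted over all genes tested. Numbers within a strain name the same mouse in the labels, so they pair the regions. Residuals of the regions of a mouse correlated at 0.305 and 0.575 in C3H and at 0.276, -0.0140 and 0.524 in B6, and a fixed block left 3 residual degrees of freedom. Alternatives were other pseudocounts, no filter, quantile normalisation, only the groups compared, the mouse as a block, each library left out, and edgeR 4.0.16 and DESeq2 1.42.0 on the recovered reads. The procedure was also run on simulated counts, with independent libraries and the same dispersion setting for every gene. That setting lacks the pairing of regions within mice, so it does not check the tests under pairing.

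All 6 members were named in every comparison, up to 4 genes of a pathway list past the threshold by smallest p (else the first by p), the most abundant gene of a marker list, and the 3 closest profiles. Other genes named (Gata6, Tbx5, Rest, Pde9a, Myh7, Etv1, Gja5, Smoc1, Cytl1, Adgrg6, Plvap, Nfatc1, Gsn, Tcf21, Myl4, Myl7, Mybphl, Nkx2-5 in the interaction, and Ide and Mme between strains) were chosen after their values were seen. The most abundant markers were Myh6 (cardiomyocyte), Kcnj3 (atrial), Irx3 (trabecular and conduction), Vwf (endocardial), Cdh5 (endothelial), Abcc9 (mural), Col1a1 (fibroblast), Msln (epicardial) and Lyz2 (macrophage). Exon lengths are the union of exons in GENCODE M21.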

Additional observations from a re-analysis of the deposited data

How the results depend on the processing

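Of 579 values of the 6 genes under alternatives, 546 kept their direction and side of the threshold, 6 newly passed, 2 no longer passed and 25 changed sign; the cause was not tested. The 2 lost calls were Npr3 in C3H without either injured library. Of 529 values of the named pathway and marker genes, whose alternatives were added after the data were seen, 481 kept both and 48 lost a call. Beside single libraries and the block, the calls of Prkg2, Pde5a and Srf in C3H did not hold in a fit of the C3H libraries alone (adjusted p = 0.0504, 0.0567 and 0.0511), that of Ide between strains in a fit of the uninjured libraries alone (0.105), and those of Prkg2 and Pde5a with quantile normalisation (0.102 and 0.0670). Quantile normalisation moved the median of all genes in C3H to -0.11. The count of genes with an injury effect in B6 was 20 with the mouse as a fixed replicate block, 16 with a random one and 4 with DESeq2, and 1 to 6 with single libraries left out, with 1 of the 6 genes past the threshold under the fixed block and 0 without any library. In C3H the fixed block gave 2 of the 6, and leaving out libraries gave 1703 (without the injured library of mouse 2) to 5015 genes and 0 to 2 of the 6. The interaction counted 491 genes with the fixed block, 777 with the random one and 722 with DESeq2, and 11 (without C3H injured mouse 2) to 272 with libraries left out. The block changed no other call of the 6 genes. Strain differences in uninjured regions counted 184 genes with only the groups compared, 916 with DESeq2 (1 of the 6) and 213 to 788 with libraries left out (0 to 1 of the 6). In injured regions they counted 2014 with DESeq2 and 100 (without C3H injured mouse 2) to 1322 with libraries left out.

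The 25 sign changes concern log2 differences of small size or wide spread. Quantile normalisation gave Npr2 0.020 in B6 and -0.058 between strains in injured regions, where edgeR gave -0.0086. With single libraries left out, B6 values ran over -0.14 to 0.32 for Npr1 and -0.26 to 0.10 for Npr2 (0.080 and 0.011 without injured mice 1 and 2), and C3H values of Nppb over -0.90 to 0.0089 (the highest without uninjured mouse 2). The interaction ran over -1.35 to 0.028 for Nppa (the highest without C3H uninjured mouse 2), -0.34 to 0.024 for Npr2, -0.69 to 0.16 for Npr3 and -0.74 to 0.47 for Corin. C3H minus B6 ran over -0.10 to 0.80 for Nppb and -0.72 to 0.19 for Corin in uninjured regions. In injured regions it ran over -0.41 to 0.051 for Npr1, -0.11 to 0.24 for Npr2 and -0.97 to 0.23 for Corin.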
